A study of Homo sapiens with 21 samples.

Results

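The MDA-MB-468 arrays treated with 50 nM THZ1 were set against the MDA-MB-468 arrays that received the vehicle DMSO. They were chosen by cell line and dose alone, 2 arrays at 50 nM and 2 with DMSO, which together are 4 of the 21 arrays of the study. MDA-MB-468 is an established human breast cancer line of the triple-negative class, which lacks oestrogen and progesterone receptors and HER2 amplification. The study exposed 4 breast cancer lines to THZ1 for 6 h at 50 or 250 nM, or to DMSO, and measured RNA on 3' expression arrays. BT-549 is also triple-negative, while ZR-75-1 and T47D are oestrogen receptor positive (ER+). Each line and dose has 2 arrays, except BT-549 with 1. The labels do not say that the 2 arrays of a group came from separate cultures, so every p-value below measures the spread between arrays, which may be technical.

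THZ1 is a covalent inhibitor of CDK7. CDK7 is part of the general transcription factor TFIIH, where it phosphorylates the C-terminal tail of RNA polymerase II as transcription starts, and in a complex with cyclin H and MAT1 it also activates the CDKs of the cell cycle. After transcription is blocked, short-lived transcripts fall sooner than stable ones, so levels at an early time depend on both synthesis and decay. THZ1 also binds CDK12 and CDK13, kinases of transcription elongation. In RNA from a whole culture, fewer cells that express a gene and less of its RNA per cell cannot be told apart.

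Of 18132 genes with a probe set of a single symbol, 12644 reached the filter on low intensity and were tested, and 5488 were not. At 50 nM, 1844 genes were lower than in DMSO, which is 14.6% of those tested, and 559 were higher, which is 4.42% (limma, Benjamini-Hochberg adjusted p under 0.05). Most of these changes were small. Among the lower genes, 8 fell at least 4-fold, 184 fell between 2-fold and 4-fold, 591 between 1.5-fold and 2-fold, and 1061 by less, with a median fold of 1.45. Among the higher genes, 1 rose at least 4-fold, 17 between 2-fold and 4-fold and 61 between 1.5-fold and 2-fold, and the other 480 rose by less, with a median fold of 1.24. A change of at least 2-fold was therefore reached by 1.52% of the tested genes downward and by 0.142% upward. Both 50 nM arrays lay below both DMSO arrays for 4934 genes (39%), and above both for 2886 genes (22.8%). The median log2 change over all tested genes was -0.06. The count of lower genes was 1189 without 50 nM replicate 2, and that of higher genes was 217 without DMSO replicate 1, 231 without 50 nM replicate 1 and 250 without 50 nM replicate 2.

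**Figure D1:**
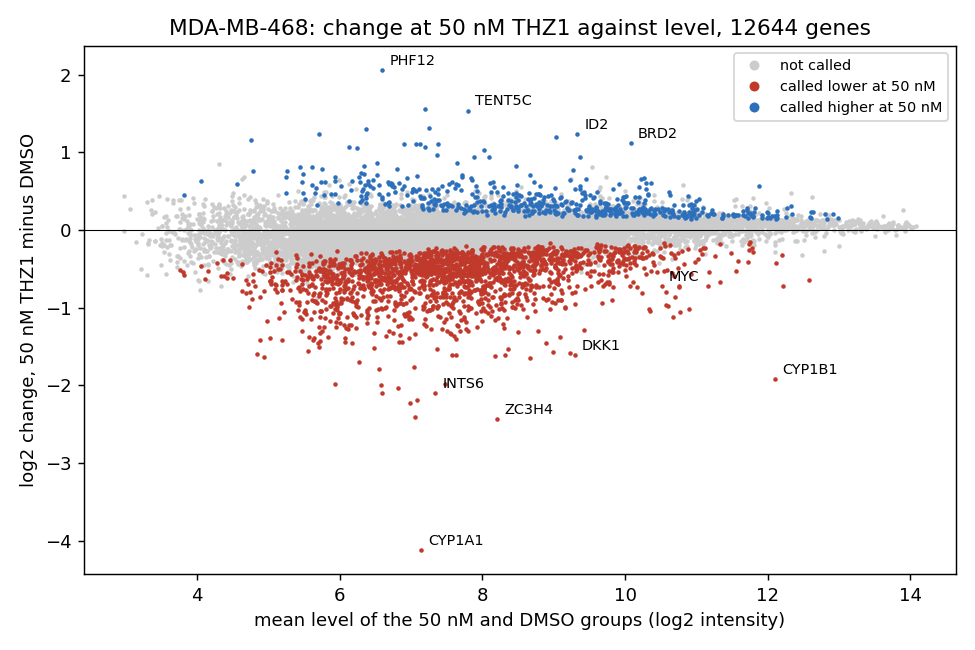
Each point is 1 of the 12644 tested genes, with its mean log2 intensity on the horizontal axis and its log2 change at 50 nM THZ1 against DMSO on the vertical axis. Colours mark the 1844 genes called lower and the 559 called higher, and the largest changes lie on the lower side, where CYP1A1 reaches -4.12.

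Mean intensities, which the authors' processing may have set to a common level, were 340 and 342 at 50 nM and 333 and 343 in DMSO, and median intensities were 57.8 and 56.8 at 50 nM and 63.9 and 62.5 in DMSO. Across all 49395 probe sets the replicate arrays correlated at 0.9934 at 50 nM and 0.9918 in DMSO. Of the tested genes, 9 and 30 differed 2-fold within the pair. Control transcripts added to the RNA (lys, TagJ and TagO) averaged a log2 intensity of 10.62 and 10.65 at 50 nM, against 10.47 and 10.58 in DMSO. Scaled to these controls, a set chosen after seeing the data, 2776 genes were lower and 146 higher, and the median of all genes was -0.19. The controls lys, phe, thr and dap averaged 8.52 and 8.56 at 50 nM, against 8.48 and 8.59 in DMSO. Scaled to them, 1410 genes were lower and 265 higher, and the median of all genes was -0.07. With each array centred on its own median, 1059 genes were lower and 1667 higher, and the median of all genes was 0.08. The split between lower and higher calls therefore depends on the scaling. The counts of gene groups below are read against the 14.6% lower, the 4.42% higher and the median of -0.06 over all tested genes, and no group was tested as a whole. Their medians were also computed under 4 other scalings, and a change of sign is given with each group. Counts of 1 or 2 higher members often changed when 1 array was left out, and nothing is read from them.

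The summed intensity of 5 basal markers on the array was 11344 and 11171 at 50 nM and 10420 and 10892 in DMSO. One of them, the cadherin gene CDH3, was not higher than in ZR-75-1, at 554 and 485 at 50 nM and 502 and 493 in DMSO, against a mean of 622 in ZR-75-1 with DMSO. The sum of 4 epithelial markers was 24247 and 25973 at 50 nM and 23784 and 23359 in DMSO. Of 3 mesenchymal markers, whose sum was 803 and 792 at 50 nM and 735 and 799 in DMSO, the filament gene VIM read 727 and 722 at 50 nM and 659 and 722 in DMSO, against means of 67.0 in ZR-75-1 and 43.1 in T47D with DMSO. The oestrogen receptor gene ESR1 read 28.9 and 21.8 at 50 nM and 29.1 and 32.6 in DMSO, against a mean of 442 in ZR-75-1 with DMSO. The progesterone receptor PGR was above array background on none of these 4 MDA-MB-468 arrays. The summed intensity of all 7 luminal markers was 1298 and 1395 at 50 nM and 1427 and 1478 in DMSO, and the luminal factors FOXA1 and GATA3 were above background. Of 11 immune and stromal markers, whose sum was 360 and 366 at 50 nM and 446 and 385 in DMSO, 6 were above background on none of the 4 arrays, among them the leukocyte gene PTPRC and the T cell gene CD3D.

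The largest fall was that of CYP1A1, a cytochrome P450 that oxidises aromatic hydrocarbons and is the classic target of the aryl hydrocarbon receptor. It read 32.0 and 35.8 at 50 nM, against 579 and 597 in DMSO, a log2 change of -4.12 (SE 0.133, 17.4-fold lower, limma adjusted p = 2.34e-11). At 250 nM the gene read 36.6 and 36.4. These readings lie near the array background, whose mean log2 value was 4.63 and 4.69 at 50 nM and 4.85 and 4.75 at 250 nM. A further fall could therefore hardly have been measured. CYP1B1, a second P450 target of the same receptor, read 2153 and 2353 at 50 nM, against 8630.1 and 8418 in DMSO (3.79-fold lower, limma adjusted p = 1.37e-11). CYP1B1 stayed near its 50 nM level, with 2172 and 2184 at 250 nM and a log2 difference between the doses of -0.05 (limma adjusted p = 0.585). Of 9 tested genes linked to this receptor, 3 were lower (33.3%) and 1 higher, with a median log2 change of -0.26.

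**Figure D2:**
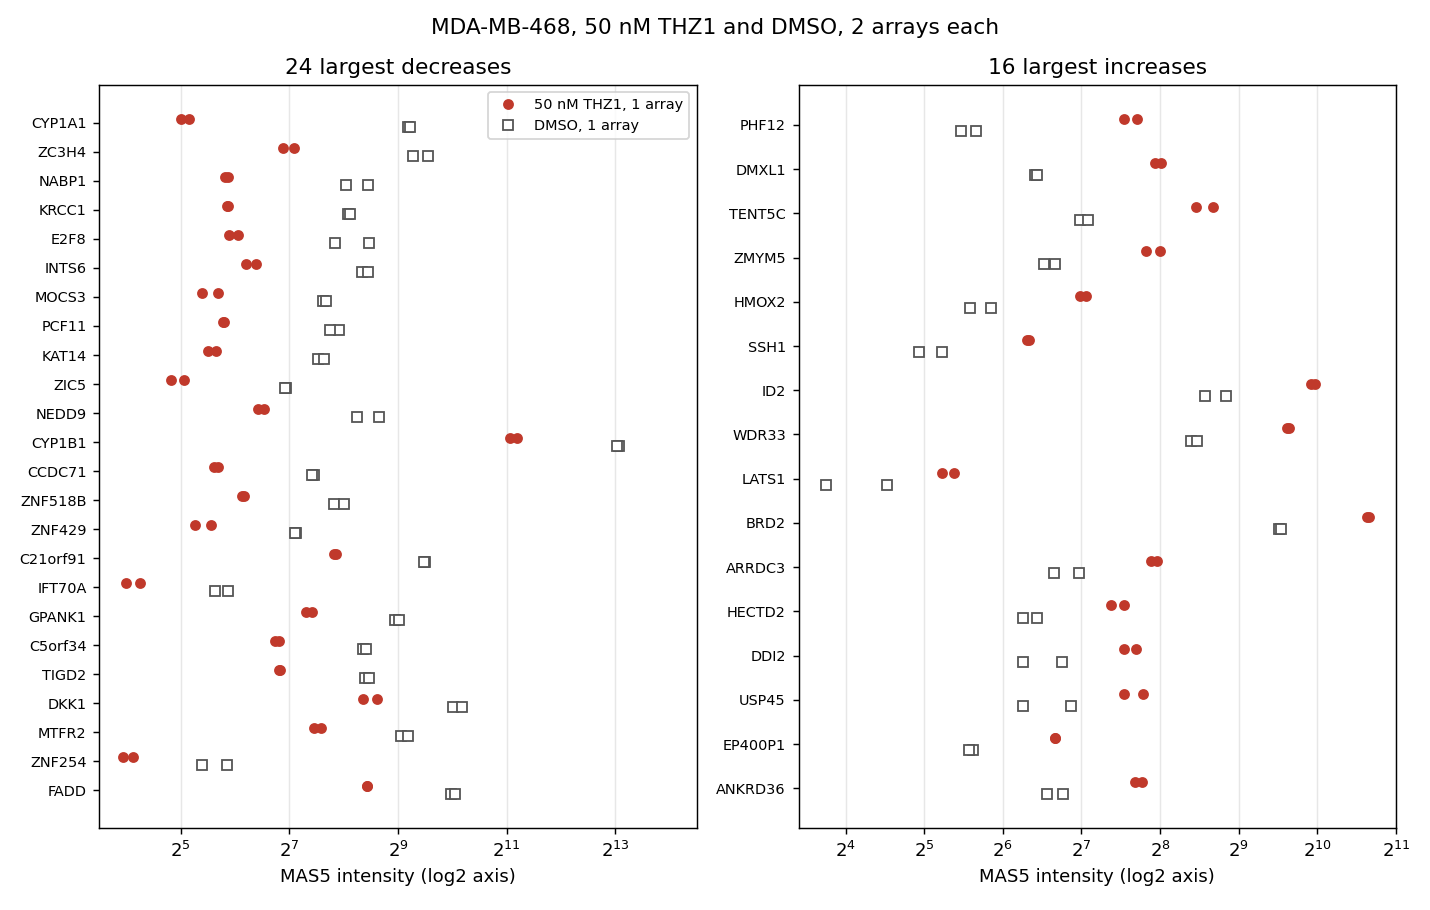
Intensity on a log axis in the 2 arrays at 50 nM THZ1 and the 2 DMSO arrays, for the genes with the largest changes; each point is 1 array. The genes were chosen among called genes whose 2 groups do not overlap, so the gap between groups is no separate support. CYP1A1 has 32.0 and 35.8 at 50 nM and 579 and 597 in DMSO.

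The promoter of CYP1A1 is printed here because the gene had the largest change, and those of FANCF, UBE2T and MMS22L because they belong to the DNA repair group described below, in which 52.6% of the tested genes were lower. Each is the stretch of 250 bases before the RefSeq gene start in GRCh38.p14, 5' to 3' on the minus strand, which carries all 4 genes. The regions are chr15:74725529-74725778 for CYP1A1, chr11:22625824-22626073 for FANCF, chr1:202341937-202342186 for UBE2T and chr6:97283217-97283466 for MMS22L. Capitals mark every match to 3 motifs on either strand: GCGTG, the core bound by the aryl hydrocarbon receptor, the TATA box TATAAA, and CCAAT, the core bound by the factor NF-Y. CYP1A1 holds GCGTG at 57 bases and TATAAA at 32 bases before the start, CCAAT at 126 bases and its reverse complement ATTGG at 246 bases. FANCF holds CCAAT at 92 and 52 bases before the start. UBE2T holds CCAAT at 124 and 73 bases, GCGTG at 146 bases and its reverse complement CACGC at 39 bases. MMS22L holds CCAAT at 145 bases and ATTGG at 36 bases.
CYP1A1: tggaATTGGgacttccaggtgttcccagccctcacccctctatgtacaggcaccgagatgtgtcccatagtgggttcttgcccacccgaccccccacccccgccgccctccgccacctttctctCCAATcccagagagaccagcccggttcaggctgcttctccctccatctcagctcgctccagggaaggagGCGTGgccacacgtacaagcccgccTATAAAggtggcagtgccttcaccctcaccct
FANCF: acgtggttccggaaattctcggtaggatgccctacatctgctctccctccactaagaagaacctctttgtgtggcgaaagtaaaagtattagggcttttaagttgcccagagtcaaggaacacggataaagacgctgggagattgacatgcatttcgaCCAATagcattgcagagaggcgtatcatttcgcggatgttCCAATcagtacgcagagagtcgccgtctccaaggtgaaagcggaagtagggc
UBE2T: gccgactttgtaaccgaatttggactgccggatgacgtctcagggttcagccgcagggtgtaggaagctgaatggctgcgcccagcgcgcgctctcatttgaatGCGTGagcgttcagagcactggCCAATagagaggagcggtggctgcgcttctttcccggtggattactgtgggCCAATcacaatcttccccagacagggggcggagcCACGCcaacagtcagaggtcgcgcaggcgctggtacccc
MMS22L: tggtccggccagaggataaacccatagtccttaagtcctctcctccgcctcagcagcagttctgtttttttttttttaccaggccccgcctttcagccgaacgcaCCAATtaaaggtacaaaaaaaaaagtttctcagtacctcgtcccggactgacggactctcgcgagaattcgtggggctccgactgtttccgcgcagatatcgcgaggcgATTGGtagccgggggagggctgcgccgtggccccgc

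Over windows of 300 bases (250 before and 50 after the start), which 10319 of the tested genes had, each motif was counted on both strands. TATAAA was in 6.33% of the 158 windows of genes lower by 2-fold or more, in 6.68% of those of higher genes and in 6.12% of those of all tested genes. GCGTG was in 51.3% of the first, 56.9% of the higher and 50.0% of all tested. CCAAT was in 43.7% of the genes lower by 2-fold or more, in 42.0% of the higher ones and in 36.6% of all tested, and in 15 of 33 DNA repair genes (45.5%). Of the lower DNA repair genes with a window, 9 of 19 held it (47.4%). FANCF, UBE2T and MMS22L, which all hold it, are therefore not typical of that group. None of these motifs contains another, and a match says only that the letters are present.

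Genes that act on nascent RNA and its termination were among the largest falls. ZC3H4, a zinc finger protein that restrains unproductive transcription outside genes, read 135 and 118 at 50 nM, against 623 and 749 in DMSO (log2 change -2.44, SE 0.121, limma adjusted p = 5.96e-09). It was lower again at 250 nM, where it read 74.1 and 76.7 at 250 nM, a further log2 difference of -0.74 (limma adjusted p = 0.000163). PCF11, a termination factor of the cleavage and polyadenylation machinery, read 56.0 and 55.2 at 50 nM, against 241 and 215 in DMSO (4.1-fold lower, limma adjusted p = 1.16e-07). At 250 nM it read 29.1 and 23.7. INTS6, a subunit of the Integrator complex that cleaves nascent transcripts, read 73.2 and 83.5 at 50 nM, against 323 and 348 in DMSO. Its other probe sets had changes of -1.76, -1.49, -1.13 and 0.51, and 1 had -0.32 without passing the test, so they did not all move one way. INTS5, of the same complex, read 109.7 and 121 at 50 nM and 245 and 220.3 in DMSO (2.01-fold lower, limma adjusted p = 7.95e-06). Of 41 tested Integrator, cleavage and termination genes 15 were lower (36.6%) and 6 higher (14.6%), and 8 were lower by at least 2-fold. The median of the list was -0.14, and 0.00 with arrays centred on their medians.

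CDK7 itself, the target of the compound, read 562 and 561 at 50 nM, against 628 and 643 in DMSO, a log2 change of -0.18 that did not pass (limma adjusted p = 0.104). CDK12 had a log2 change of 0.00 and CDK13 of 0.04, and neither passed (limma adjusted p = 0.989 and 0.899), although 2 of the 5 tested probe sets of CDK12 were higher and none lower. Of 8 tested TFIIH and CDK7 complex genes, 1 was lower, GTF2H1 (log2 change -0.46, limma adjusted p = 0.000871), a core subunit of TFIIH, and the median of -0.04 turned positive with arrays centred on their medians (0.10) or quantile-normalized (0.02). MNAT1, which encodes the CDK7 partner MAT1, read 367 and 375 at 50 nM and 272 and 326 in DMSO (log2 change 0.32, limma adjusted p = 0.0113), and no longer passed without DMSO replicate 1 (limma adjusted p = 0.172) or without 50 nM replicate 2 (limma adjusted p = 0.0784). MEPCE, which caps the 7SK RNA that holds the elongation kinase CDK9 inactive, read 414 and 425 at 50 nM, against 699 and 659.5 in DMSO (log2 change -0.69, limma adjusted p = 2.25e-06). Its treated arrays lay below both DMSO arrays, as they did for 39% of all tested genes.

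Subunits of TFIID and Mediator, which bring RNA polymerase II to promoters, changed in both directions. TAF5, a core TFIID subunit, read 103 and 104 at 50 nM, against 198 and 214 in DMSO (SE of the log2 change 0.157, limma adjusted p = 0.000308). MED7, of the middle module of Mediator, read 156 and 199 at 50 nM, against 363 and 362 in DMSO (log2 change -1.04, limma adjusted p = 0.000232). GTF2B, the initiation factor TFIIB, went the other way, with 1438 and 1398 at 50 nM and 860.2 and 1086 in DMSO (log2 change 0.55, limma adjusted p = 0.00255). The largest polymerase subunit, POLR2A, was also higher, at 562 and 526 in treated cells and 365 and 369.6 in DMSO (log2 change 0.57, limma adjusted p = 0.000376). In numbers, 6 of 23 TFIID and initiation genes were lower (26.1%) and 2 higher, and 7 of 27 Mediator genes were lower (25.9%) and 2 higher. Their medians of -0.08 and -0.13 turned to 0.06 and 0.01 with arrays centred on their medians. These small counts rest on single arrays: 3 TFIID genes were lower without DMSO replicate 2 or without 50 nM replicate 2, while Mediator had 4 lower without DMSO replicate 2 and 3 without 50 nM replicate 1. None of 12 polymerase II subunits was lower and 1 was higher, with a median of 0.03 that turned negative when quantile-normalized (-0.02) or scaled to lys, TagJ and TagO (-0.08).

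Homologous recombination and the Fanconi anaemia pathway mend double-strand breaks and DNA crosslinks. Of 38 tested genes, 20 were lower (52.6%, against 14.6% of all tested genes), 1 was higher (2.63%) and 17 did not pass, and their median log2 change was -0.33. FANCF, an adaptor of the Fanconi core complex, read 69.6 and 68.7 at 50 nM, against 197 and 178 in DMSO (2.71-fold lower, limma adjusted p = 1.83e-07). MMS22L, which helps repair stalled replication forks, read 167 and 172 at 50 nM, against 364 and 403 in DMSO (2.25-fold lower, limma adjusted p = 1.74e-06). It was higher again at 250 nM, with 287 and 260.3, a log2 difference between doses of 0.69 (limma adjusted p = 9.54e-05). UBE2T, the ubiquitin-conjugating enzyme of the pathway, read 1320.2 and 1353 at 50 nM, against 2019.5 and 1916 in DMSO (1.47-fold lower, limma adjusted p = 1.84e-06). BARD1, the partner of BRCA1, read 281 and 247 at 50 nM and 499.5 and 473 in DMSO (1.85-fold lower, limma adjusted p = 3.79e-05). BRCA1 read 195 and 196 at 50 nM and 263 and 273 in DMSO (1.37-fold lower, limma adjusted p = 0.00352). In each of these 5 genes the treated arrays lay below both DMSO arrays, as in 39% of all tested genes. Choosing list members by their test statistic favours such a gap. Centred on array medians, 13 genes of the list were lower and 1 higher and the median was -0.19.

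E2F factors drive the genes of DNA synthesis and are held in check by the RB family. The list of E2F and RB family genes together had 8 of 17 members lower (47.1%) and 1 higher, with a median of -0.34. E2F8, an atypical repressor E2F, read 66.4 and 59.6 at 50 nM, against 229.9 and 354 in DMSO (4.54-fold lower, limma adjusted p = 1.49e-06). The gap between the DMSO arrays was itself wide. Both stood above both treated arrays, which the choice of the largest changes required. E2F7, its close relative, read 145 and 118 at 50 nM, against 302 and 306 in DMSO (2.33-fold lower, limma adjusted p = 1.18e-05). E2F5 read 248 and 243 at 50 nM and 464 and 509 in DMSO (1.98-fold lower, limma adjusted p = 1.72e-06). The count of lower members was 5 without DMSO replicate 2 and 5 without 50 nM replicate 2.

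Of 39 tested mitotic genes 12 were lower (30.8%) and none higher, with a median of -0.15, and of 48 replication genes 10 were lower (20.8%) and 2 higher. CENPA, the histone that marks the centromere, read 1224 and 1208 at 50 nM, against 2329 and 2732 in DMSO (2.07-fold lower, limma adjusted p = 5.44e-06). The mitotic kinase AURKA read 1343 and 1266 at 50 nM, against 1632 and 1730.5 in DMSO (log2 change -0.37, limma adjusted p = 0.000272). WEE1, which restrains entry into mitosis, read 678 and 739 at 50 nM and 1058 and 1059 in DMSO, and only 111 and 108 at 250 nM. Centred on array medians, the replication list flipped to a median of 0.10, with 6 lower and 5 higher. The mitotic list then had 7 lower and 2 higher, with a median of -0.01. Centrosome and cilium genes counted 21 lower of 63 (33.3%) and 1 higher, with a median of -0.18. With arrays centred on their medians, 12 of these were lower and 6 higher, with a median of -0.04. In this list TUBD1, the minor tubulin delta of centrioles, read 60.0 and 52.7 at 50 nM, against 126 and 120.1 in DMSO (2.19-fold lower, limma adjusted p = 1.69e-06). CEP68, which helps hold centrosomes together, read 102 and 90.1 at 50 nM, against 220.0 and 233 in DMSO (2.36-fold lower, limma adjusted p = 2.05e-06), but of its other probe sets 1 was lower (-1.02) and 1 was higher (0.48). Without 50 nM replicate 2, 13 genes of this list were lower.

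**Figure D3:**
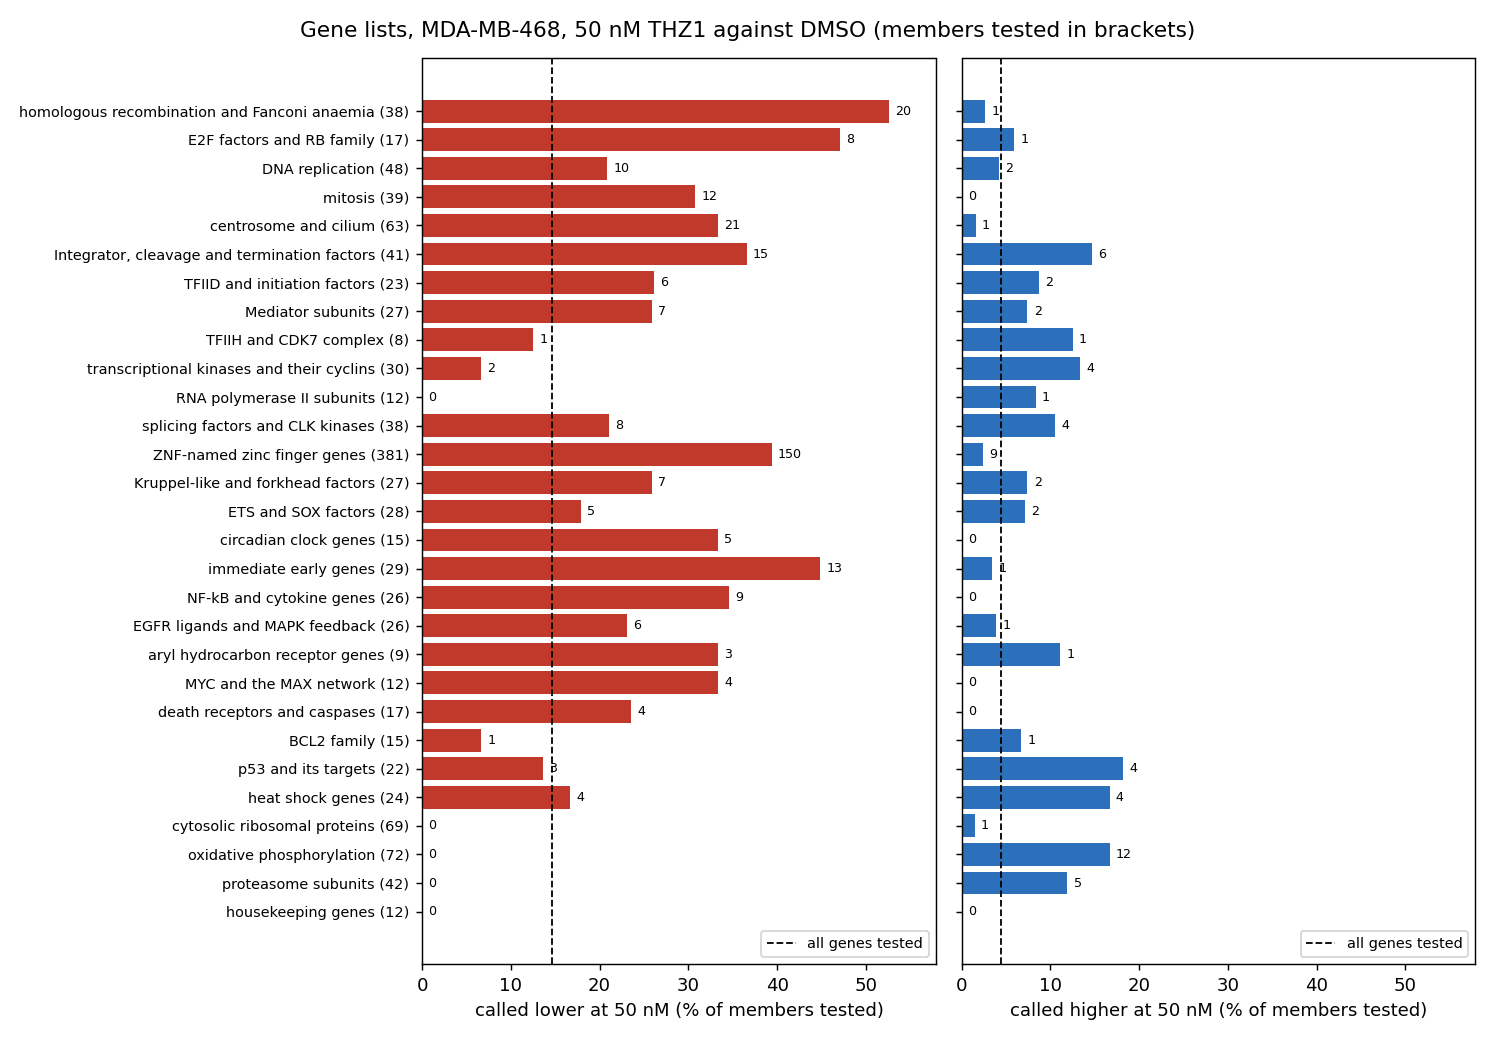
For each gene list, the bars give the percentage of tested members called lower and called higher at 50 nM THZ1 against DMSO, with vertical lines at the 14.6% and 4.42% found over all tested genes. Of the lists drawn, DNA repair genes have the highest share of lower members, at 52.6%, while oxidative phosphorylation has 0 lower and 16.7% higher.

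Zinc finger genes were the most numerous class. Of 486 genes with a ZNF name, 381 were tested, of which 150 were lower (39.4%) and 9 higher (2.36%), with a median log2 change of -0.32 and 27 lower by at least 2-fold. Many of this class encode DNA-binding repressors of the KRAB type. ZNF518B read 70.3 and 72.2 at 50 nM, against 227 and 256 in DMSO (log2 change -1.76, limma adjusted p = 2.24e-06). ZNF429 read 38.3 and 47.3 at 50 nM, against 139 and 138 in DMSO (log2 change -1.70, limma adjusted p = 1.09e-05). ZNF254 was not above array background on either 50 nM array, where it read 17.5 and 15.2, against 41.9 and 57.9 in DMSO, and its fall is a bound of at least 1.95-fold. Such bounds affect few genes: 32 of the lower genes had no 50 nM array above background. Centred on array medians, 110 zinc finger genes were lower and 21 higher, and the number higher, 9 as reported, was 2 without DMSO replicate 1, 3 without 50 nM replicate 1 and 2 without 50 nM replicate 2.

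Immediate early genes, whose unstable transcripts appear within minutes of growth factor signals, had 13 of 29 members lower (44.8%) and 1 higher, with a median of -0.19. EGR1, a zinc finger factor of this class, read 181 and 199.9 at 50 nM, against 419.8 and 399 in DMSO (2.15-fold lower, limma adjusted p = 2.9e-05). CCN1, a secreted matrix protein, read 1236 and 1233 at 50 nM, against 2145 and 2333 in DMSO (1.81-fold lower, limma adjusted p = 8.35e-06), and 108 and 107 at 250 nM. PHLDA1, a pleckstrin-like protein induced by mitogens, read 139.8 and 142 at 50 nM and 319.9 and 362 in DMSO (2.42-fold lower, limma adjusted p = 1.49e-06). IER3, a stress-induced regulator of cell survival, read 4973 and 4842 at 50 nM and 7859.7 and 7531 in DMSO (1.57-fold lower, limma adjusted p = 3.56e-06). In these genes both treated arrays lay below both DMSO arrays, as in 39% of all tested genes. Without 50 nM replicate 2, 8 members were lower.

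NF-kB and cytokine genes had 9 of 26 lower (34.6%) and none higher, with a median of -0.34. IRF1, a transcription factor induced by interferon and NF-kB, read 149.8 and 171 at 50 nM, against 326 and 315 in DMSO (2-fold lower, limma adjusted p = 7.34e-05). NFKBIA, the inhibitor that NF-kB itself induces, read 303 and 332 at 50 nM and 438 and 444 in DMSO (log2 change -0.47, limma adjusted p = 0.00202). The cytokine LIF read 196 and 193 at 50 nM and 348 and 318 in DMSO (log2 change -0.77, limma adjusted p = 0.00435). This count fell to 4 without DMSO replicate 2 and 5 without 50 nM replicate 1. Circadian clock genes had 5 of 15 lower (33.3%) and none higher, with a median of -0.35. PER2, a repressor of the clock, read 134 and 156 at 50 nM, against 310.2 and 347 in DMSO (log2 change -1.18, limma adjusted p = 5.22e-07).

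DKK1, a secreted inhibitor of WNT signalling, read 390.5 and 328 at 50 nM, against 1029.8 and 1162 in DMSO (3.05-fold lower, limma adjusted p = 1.31e-06), and 60.6 and 50.0 at 250 nM. IRS1, the adaptor of the insulin receptor, read 196 and 214 at 50 nM and 449 and 501 in DMSO (log2 change -1.21, limma adjusted p = 3.81e-07). NEDD9, a scaffold of focal adhesion signalling, read 92.5 and 85.5 at 50 nM, against 305 and 402 in DMSO (3.94-fold lower, limma adjusted p = 1.09e-05), and 25.9 and 26.0 at 250 nM. ZIC5, a zinc finger factor of neural development, read 33.6 and 28.4 at 50 nM, against 122 and 121 in DMSO (3.94-fold lower, limma adjusted p = 1.38e-06). All 4 genes had both treated arrays below both DMSO arrays, as did 39% of all tested genes. The choice of the largest changes required this of DKK1, NEDD9 and ZIC5. FOXQ1, a forkhead factor, read 931 and 886 at 50 nM and 1850.5 and 1885 in DMSO (log2 change -1.04, limma adjusted p = 0.000267).

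The proto-oncogene MYC read 1137 and 1146 at 50 nM, against 1846 and 1914 in DMSO (1.65-fold lower, limma adjusted p = 1.84e-05). At 250 nM it read 107 and 93.3, a further log2 difference of -3.51 (limma adjusted p = 4.94e-13), so most of its fall lay between the doses. MYC and its dimer partners of the MAX network had 4 of 12 lower (33.3%) and none higher, and 2 lower without DMSO replicate 2 and 2 without 50 nM replicate 2. MCL1, an anti-apoptotic BCL2 relative with a short-lived transcript, read 2524 and 2507 at 50 nM, against 2742 and 2472 in DMSO. Those groups overlap, and its log2 change of -0.05 did not pass (limma adjusted p = 0.738), while at 250 nM it read 743 and 587. Of its 6 tested probe sets, however, 3 were lower at 50 nM and none higher. The receptor gene EGFR, amplified in this line, read 4778 and 4636 at 50 nM and 4216 and 4319 in DMSO, a change of 0.14 that did not pass (limma adjusted p = 0.192), and 1 of its 6 tested probe sets was lower.

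Of the genes of cell death, 4 of 17 death receptor and caspase genes were lower (23.5%) and none higher, and of 15 tested BCL2 family genes 1 was lower and 1 higher. The BCL2 family median of 0.02 turned to -0.09 when scaled to lys, TagJ and TagO. FADD, the adaptor that links death receptors to caspase-8, read 347 and 346 at 50 nM, against 1013 and 1061 in DMSO (2.99-fold lower, limma adjusted p = 3.36e-08), and 79.1 and 103 at 250 nM. CASP8AP2, which takes part in histone gene expression and binds caspase-8, read 201 and 183 at 50 nM, against 493 and 628 in DMSO (log2 change -1.53, limma adjusted p = 1.26e-05). Both genes had their treated arrays below both DMSO arrays, as did 39% of all tested genes. The choice of the largest changes required this of FADD. The CDK inhibitor genes moved apart: CDKN1B (p27) read 252 and 293 at 50 nM and 496 and 464 in DMSO (log2 change -0.82, limma adjusted p = 0.000275). CDKN1A (p21), a target of p53, read 206 and 194 at 50 nM and 132 and 146 in DMSO (log2 change 0.53, limma adjusted p = 0.00111).

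Of 26 EGFR ligands and MAPK feedback genes 6 were lower (23.1%) and 1 higher. Of 27 Kruppel-like and forkhead factors 7 were lower (25.9%) and 2 higher, and no member was higher without DMSO replicate 1, DMSO replicate 2 or 50 nM replicate 1. Heat shock genes had 4 of 24 lower (16.7%, near the 14.6% of all genes) and 4 higher (16.7%), and 1 lower and 7 higher with arrays centred on their medians. Their median of 0.01 turned to -0.02 when quantile-normalized and to -0.10 when scaled to lys, TagJ and TagO. The lower heat shock genes numbered 2 without DMSO replicate 2 and 1 without 50 nM replicate 2. Of 22 tested genes of p53 and its targets, 3 were lower (13.6%, near the share of all genes) and 4 higher (18.2%). Without DMSO replicate 1 there was 1 of each, and without 50 nM replicate 1 there were 2 lower and 1 higher. Their median of 0.03 turned to -0.08 when scaled to lys, TagJ and TagO.

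With the intensities as deposited, fewer genes rose than fell, and several of the risen genes were lower at 250 nM than at 50 nM. The genes named here were chosen by their rise on the same 50 nM arrays, which favours such a drop. BRD2, a bromodomain reader of acetylated histones, read 1613 and 1580.4 at 50 nM, against 728 and 742 in DMSO (2.17-fold higher, limma adjusted p = 1.24e-08). At 250 nM it read 567 and 552, a log2 difference from 50 nM of -1.51 (limma adjusted p = 2.22e-11). ID2, an inhibitor of helix-loop-helix factors, read 968 and 999 at 50 nM, against 379.7 and 459 in DMSO (2.36-fold higher, limma adjusted p = 1.44e-05). At 250 nM it read 362 and 429, a log2 difference from 50 nM of -1.32 (limma adjusted p = 1.56e-06). TENT5C, a poly(A) polymerase of the cytoplasm, read 352 and 408 at 50 nM, against 126 and 135 in DMSO (2.9-fold higher, limma adjusted p = 3.59e-05). At 250 nM it read 55.1 and 54.8, a log2 difference from 50 nM of -2.78 (limma adjusted p = 9.89e-09). In these 3 genes the 50 nM arrays were the highest of the 6, which their choice among the largest rises favours. HSPA1B, an inducible HSP70 whose near-identical copy HSPA1A may share its probes, read 1542 and 1452 at 50 nM and 1022 and 877 in DMSO (log2 change 0.66, limma adjusted p = 5.81e-05), and 511 and 485 at 250 nM. MED26, a Mediator subunit, read 1188 and 1086 at 50 nM and 869 and 865 in DMSO (log2 change 0.39, limma adjusted p = 0.00414), and 199 and 196 at 250 nM, though its rise did not pass without 50 nM replicate 1 (limma adjusted p = 0.0606).

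**Figure D4:**
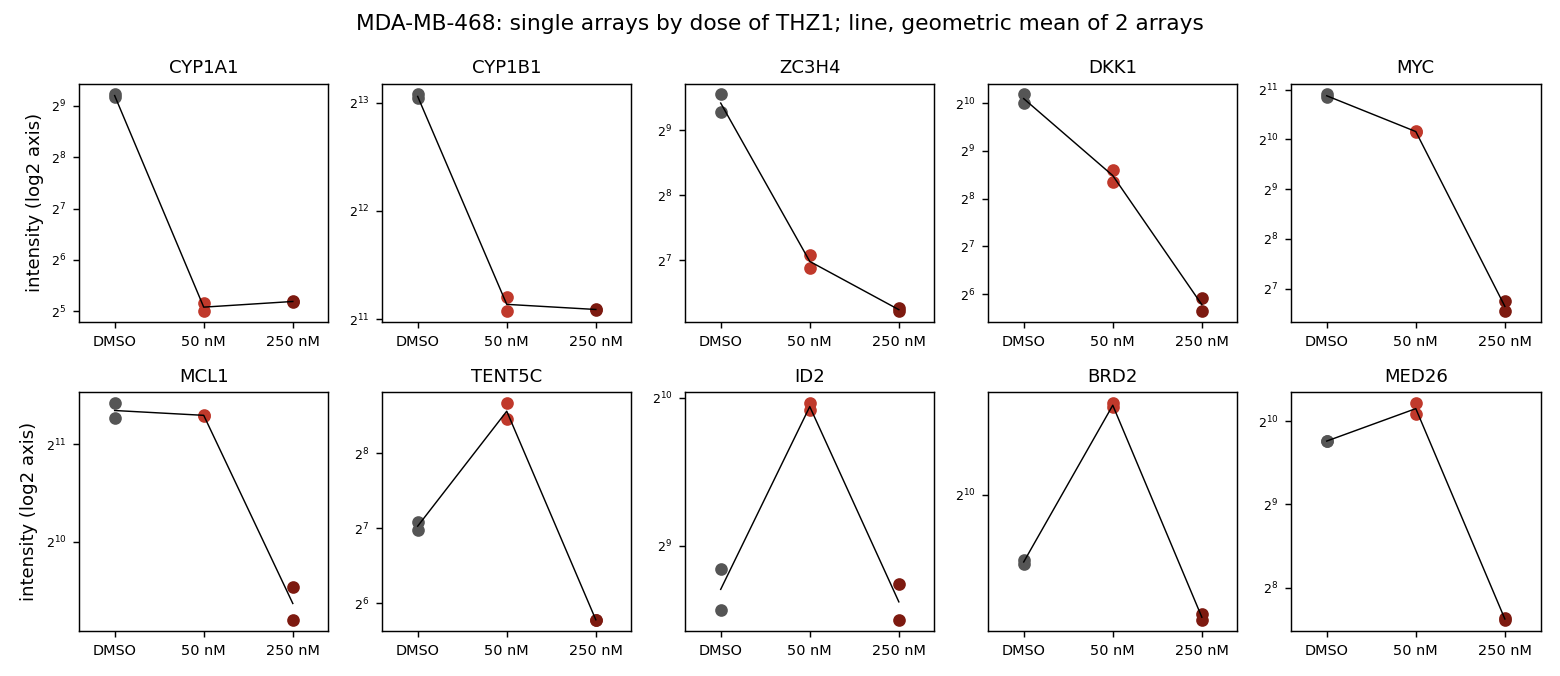
Intensity on a log axis in each MDA-MB-468 array with DMSO, 50 nM and 250 nM THZ1 for 10 genes; each point is 1 array and the line joins the group means. CYP1A1, which lies near array background at both doses, and CYP1B1 are flat between 50 and 250 nM. MYC and MCL1 fall mainly between those doses, and TENT5C, ID2, BRD2 and MED26 are highest at 50 nM.

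The 250 nM comparison uses the same DMSO arrays, so its values are given side by side only. The comparison between doses uses the same 50 nM arrays by which most named genes were chosen. For those genes this favours a return towards the DMSO level at 250 nM. At 250 nM, 3834 genes were lower than in DMSO (30.3%) and 1206 higher (9.54%). Between the doses, 2930 genes were lower at 250 nM than at 50 nM (23.2%) and 725 higher (5.73%).

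For some of the other large increases, probe sets of the same gene disagreed. PHF12, a subunit of a SIN3 corepressor complex, had the single rise of at least 4-fold, with 186 and 209 at 50 nM, against 50.5 and 44.4 in DMSO (4.17-fold higher, limma adjusted p = 7.3e-08), but another of its probe sets had a log2 change of -0.54. WDR33, a factor that recognises the polyadenylation signal, read 796 and 786 at 50 nM, against 336 and 355 in DMSO (log2 change 1.20, limma adjusted p = 3.36e-08). Its other probe sets had changes of -1.19, -1.13 and 0.82. DMXL1, a protein linked to the vacuolar proton pump, had a change of 1.55 and other probe sets at -0.40 and -0.52. Of the 16 most positive genes, 13 had more than 1 tested probe set, and 5 of these had probe sets called in both directions: PHF12, DMXL1, SSH1, WDR33 and HECTD2. Another 4 had all tested probe sets higher, and 3 of the 16 had a single probe set. Of the 24 most negative, 16 had more than 1, and only INTS6 had calls in both directions. Over all 7681 genes with at least 2 tested probe sets, 139 had calls in both directions (1.81%). BRD2 and ID2 were not among them. HMOX2, the constitutive haem oxygenase, read 133 and 126 at 50 nM and 57.7 and 47.9 in DMSO (2.46-fold higher, limma adjusted p = 8.76e-08). Its log2 change ranged from 0.61 to 1.44 over the settings tried.

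Housekeeping functions moved little. None of 69 cytosolic ribosomal protein genes was lower and 1 was higher, with a median of 0.05, and none of 12 housekeeping genes passed in either direction, with a median of 0.08 that turned to -0.03 when scaled to lys, TagJ and TagO. Of 72 oxidative phosphorylation genes none was lower and 12 were higher (16.7%), with a median of 0.12. SDHC, a subunit of succinate dehydrogenase, read 1496 and 1424 at 50 nM and 1169.7 and 1224 in DMSO (log2 change 0.29, limma adjusted p = 0.00177). That count is not stable: 36 were higher with arrays centred on their medians, none when scaled to lys, TagJ and TagO, 2 without DMSO replicate 1, 3 without 50 nM replicate 1 and 3 without 50 nM replicate 2. Of 42 proteasome genes 5 were higher and none lower, and none was higher without DMSO replicate 1 or without 50 nM replicate 2, with 2 higher without 50 nM replicate 1. The median of the proteasome and ribosomal protein lists turned negative, to -0.04 and -0.06, under the scaling to lys, TagJ and TagO.

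The change at 50 nM was then compared with its size in the ER+ lines, by subtracting the average change of ZR-75-1 and T47D from that of MDA-MB-468 in the same model. This difference contains the MDA-MB-468 arrays already described. It was negative for 314 genes (2.48%) and positive for 51 (0.403%) at a limma adjusted p under 0.05. The negative count was 182 without DMSO replicate 1, 158 without DMSO replicate 2, 138 without 50 nM replicate 1 and 122 without 50 nM replicate 2, and the positive count was 20, 93, 11 and 8 in the same order. ZR-75-1 had 718 genes lower (5.68%) and 353 higher (2.79%), and T47D 956 lower (7.56%) and 252 higher (1.99%). The most negative difference was that of ZIC5, which changed by -1.98 in MDA-MB-468 and by -0.53 and -0.07 in ZR-75-1 and T47D, a difference of -1.67 (SE 0.213, limma adjusted p = 0.000694). DKK1 changed by -1.61 in MDA-MB-468, against -0.54 in ZR-75-1 and -0.23 in T47D (difference -1.23, limma adjusted p = 0.00116). For MYC the changes were -0.72, -0.16 and -0.11 in the same order of lines (difference -0.58, SE 0.102, limma adjusted p = 0.00569), and the difference did not pass with arrays centred on their medians (limma adjusted p = 0.0502) or scaled to lys, phe, thr and dap (limma adjusted p = 0.0759). Of the P450 genes, CYP1A1 changed by -4.12 in MDA-MB-468, against -1.63 in ZR-75-1 and -3.56 in T47D, so it fell in all 3 lines, and by more in MDA-MB-468 than in the average of the other two (difference -1.53, limma adjusted p = 0.000358). HMOX2 had the most positive difference, with 1.30 in MDA-MB-468, against 0.11 in ZR-75-1 and 0.07 in T47D (difference 1.21, limma adjusted p = 6.61e-05). With the mean of all probe sets its difference was 0.65 (limma adjusted p = 0.00468).

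**Figure D5:**
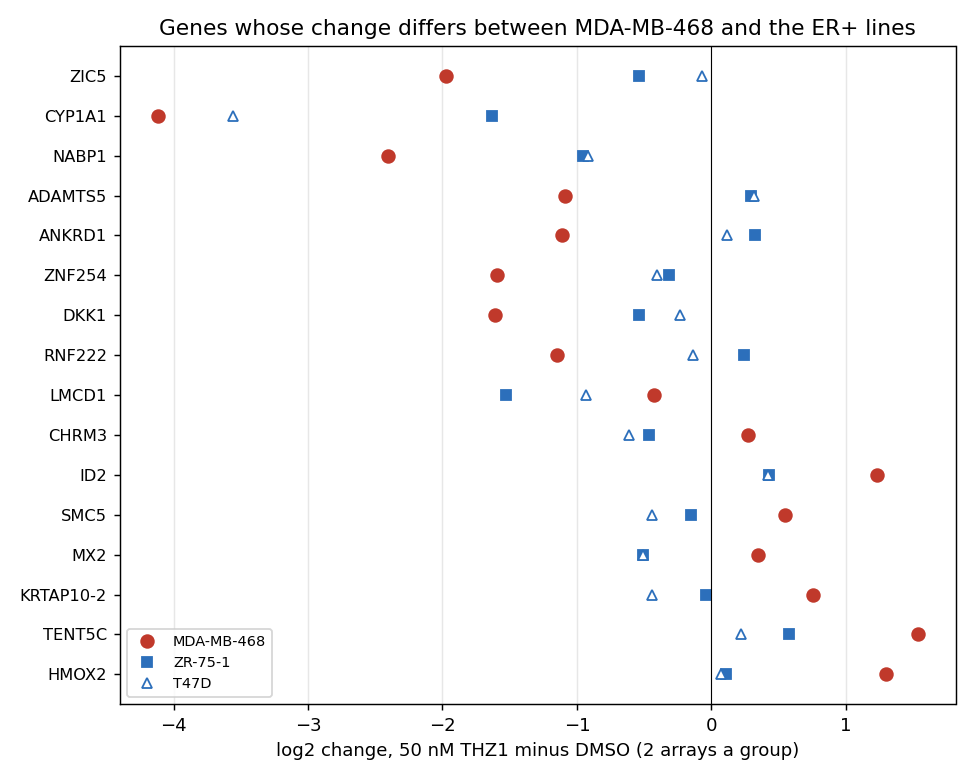
Log2 change at 50 nM THZ1 against DMSO for genes whose change in MDA-MB-468 differed from the average of both ER+ lines; each point is the fitted change of 1 line, MDA-MB-468, ZR-75-1 or T47D. ZIC5 has -1.98 in MDA-MB-468 against -0.53 and -0.07, and HMOX2 has 1.30 against 0.11 and 0.07.

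BT-549 has 1 array a dose, so its values carry no test. Of the 24 genes with the most negative change in MDA-MB-468, all 24 were lower in the BT-549 array at 50 nM than in its DMSO array, 19 of them by at least 2-fold, where 3.24% of all tested genes fell that far. Their median log2 difference in BT-549 was -1.50, from -2.82 to -0.02. Of the 16 with the most positive change, 15 were higher in BT-549, 8 of them by at least 2-fold, where 0.174% of all tested genes rose that far. Their median was 1.00, from -0.25 to 1.62, and that of all tested genes was -0.04.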

How the data were processed

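RNA from 21 arrays was analysed: 2 of MDA-MB-468 for each of 50 nM THZ1, 250 nM THZ1 and DMSO, the same for ZR-75-1 and T47D, and 1 of BT-549 for each, all after 6 h. The authors deposited intensities on a linear scale; MAS5 is named in the submitters' processing notes, and no source used here gives the scaling of the arrays. Groups came from sample titles and the cell-line field, because the source field of ZR-75-1 and T47D names another line. Per the labels' protocols, spike-in RNA was added by cell number; no probe set carries an ERCC name, so scaling per cell was not done.

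From the deposited intensities, log2 values were taken with a floor of 1 and no rescaling. Each gene was represented by its probe set of highest mean across the 21 arrays, and kept where its highest group mean reached an intensity of 57.4, the median of all values. A model of 9 group means was fitted to 18 arrays with limma 3.58.1 (R 4.3.3), with a variance trend (9 residual and 6.18 prior degrees of freedom); BT-549, with 1 array a dose, stayed out of the fit. A probe set was above background where it exceeded the mean log2 value of 23 background probe sets on that array. Named genes are, of the called genes whose groups do not overlap, the 24 that fell and the 16 that rose furthest, MYC and 10 other fixed genes, up to 5 genes per list by moderated statistic, and 8 per direction for the difference between lines. FOXC1, a fixed gene, had no probe set of a single symbol. The comparison and the 49 gene lists were chosen with earlier results of these data known, so no list was tested. The number of arrays limits the precision. Alternatives in scaling, filter, floor, probe sets, arrays, model and a replicate block were tried. Replicate numbers were not taken to pair the arrays: deviations of same-numbered arrays correlated at 0.025 between 50 nM and DMSO in MDA-MB-468, at 0.291 between 250 nM and DMSO there, and from -0.22 to 0.169 over the other comparisons. The fit was tested on simulated data.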

Additional observations from a re-analysis of the deposited data

Results flagged for a closer look

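These results stand out because the change at 50 nM in MDA-MB-468 differed, by an interaction test in limma, from the mean change in ZR-75-1 and T47D. The difference was negative for 314 genes and positive for 51. All values below are differences on the log2 scale, MDA-MB-468 minus the mean of the ER+ lines.

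Negative differences were found for genes of several functions. Beside ZIC5 (-1.67), CYP1A1 (-1.53) and DKK1 (-1.23), NABP1, a single-strand DNA binding protein, had -1.47 and was 5.3-fold lower in MDA-MB-468. The metalloprotease gene ADAMTS5 had -1.40, the cardiac ankyrin repeat gene and YAP target ANKRD1 had -1.33, and RNF222 had -1.20. For these 3 genes the change was negative in MDA-MB-468 (-1.09, -1.11 and -1.15) and positive in ZR-75-1 (0.30, 0.32 and 0.24); in T47D it was 0.32 for ADAMTS5, 0.12 for ANKRD1 and -0.14 for RNF222. With a floor of 16, the differences of ADAMTS5, ANKRD1 and RNF222 were -1.31, -1.17 and -1.19. Some of the arrays compared therefore read under 16, which is below array background. No test of the changes within the ER+ lines is given. ZNF254 had -1.24, where no 50 nM array of MDA-MB-468 was above background.

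Positive differences were found for HMOX2 (1.21), TENT5C (1.13), the keratin-associated gene KRTAP10-2 (1.00), the interferon-induced gene MX2 (0.86), SMC5 of the SMC5/6 complex (0.85), ID2 (0.81), the muscarinic receptor gene CHRM3 (0.81) and LMCD1 (0.80). MX2 and CHRM3 did not pass the test in MDA-MB-468 itself (0.35 and 0.27), and LMCD1 was lower in all 3 lines (-0.43 in MDA-MB-468, -1.53 in ZR-75-1 and -0.93 in T47D).

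A further 7 genes were chosen after their values were seen. MYC had -0.58 and CYP1B1 -0.38. CCN1 had -0.98, with a change of -0.86 in MDA-MB-468, against 0.13 in ZR-75-1 and 0.12 in T47D. IRF1 had -1.19, EGR1 -1.18, the epithelial ETS factor ELF3 -0.99 and HEXIM1, which inhibits CDK9 with 7SK, -0.86. ELF3 was lower in MDA-MB-468 (-0.52), against 0.32 in ZR-75-1 and 0.61 in T47D. HEXIM1 had -0.37 in MDA-MB-468, against 0.61 in ZR-75-1 and 0.36 in T47D.

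Of these 23 genes, 12 passed without any 1 of the 4 MDA-MB-468 arrays. The other 11 lost the call at least once. ADAMTS5, KRTAP10-2 and MX2 lost it without each of the 4 arrays in turn (highest limma adjusted p 0.0964, 0.173 and 0.216). ID2, SMC5 and TENT5C lost it without DMSO replicate 1 (limma adjusted p = 0.104, 0.192 and 0.0691) and without 50 nM replicate 2 (0.0942, 0.121 and 0.103), and ID2 and SMC5 also without 50 nM replicate 1 (0.0714 and 0.152). ZNF254 lost it without DMSO replicate 2 (0.101) and without either 50 nM array (0.063 and 0.121), and ANKRD1 without either 50 nM array (0.0509 and 0.0503). CHRM3 and CYP1B1 lost it without 50 nM replicate 1 (0.0588 and 0.0714), and LMCD1 without 50 nM replicate 2 (0.0784). The change of HEXIM1 within MDA-MB-468 did not pass without DMSO replicate 1 (0.0598), DMSO replicate 2 (0.0878) or 50 nM replicate 2 (0.146).

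Across the 4 other scalings 19 of the 23 genes passed each time, and 11 passed in every setting tried. With arrays centred on their medians, MYC (limma adjusted p = 0.0502) and CYP1B1 (0.219) did not pass. Scaled to lys, phe, thr and dap, MYC (0.0759), CYP1B1 (0.23), MX2 (0.0881) and ZNF254 (0.0508) did not pass. Scaled to lys, TagJ and TagO, MX2 (0.0869) did not. With the mean of all probe sets, SMC5 had 0.21 (limma adjusted p = 0.292) and LMCD1 0.34 (0.09). In that setting MX2 had 0.57 (0.16) and ZNF254 -0.85 (0.0787), and none of these 4 passed. Nor did SMC5 without the variance trend (0.0698), MX2 without the filter (0.0546), or both with the replicate block (0.0598 and 0.0511).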

How the results depend on the processing

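Of 227 named genes that passed, 129 passed in every setting tried, 155 under all 4 other scalings and 150 without any 1 array; of the 40 largest changes 36 passed in every setting, all but DMXL1, SSH1, HECTD2 and USP45. The count of 36 did not require the sign to hold. WDR33 is among them, although its log2 change turned to -0.33 with the mean of all probe sets. The scaling to lys, TagJ and TagO was chosen after seeing the data. Where values below moved, the cause was not tested.

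Centring on array medians gave 1059 lower and 1667 higher genes, 104 lower by 2-fold, 127 negative and 80 positive differences to the ER+ lines, and 1932 lower and 3418 higher probe sets (against 3473, 11.9%, and 1163, 4%). Quantile normalization gave 114 lower by 2-fold and 1772 higher probe sets. Scaling to lys, phe, thr and dap gave 265 higher genes, 85 and 28 differences and 599 higher probe sets. With lys, TagJ and TagO as the scale there were 2776 lower and 146 higher genes, 305 and 10 by 2-fold, 19 positive differences, and 5304 lower and 379 higher probe sets. The mean of all probe sets gave 110 and 3 genes by 2-fold; it also turned the sign of WDR33 (-0.33), XIAP (0.17), CRYAB (-0.10), ERBB3 (0.064), KLF3 (0.057), HSPA13 (0.059), TSC1 (0.031) and MRPS25 (-0.0068).

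Without 1 array each, lower genes numbered 1189 to 1428, higher genes 217 to 593, 2-fold lower 180 to 236, 2-fold higher 14 to 26, negative differences 122 to 182, positive 8 to 93, and lower and higher probe sets 2086 to 2520 and 479 to 1184. With the replicate block, which could not be read as a pairing, 1911 genes were lower and 592 higher and no count moved by over 1.5 times.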
